A study of Homo sapiens with 32 samples.

Results

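The 36 genes described here are targets of the transcription factor NRF2 and enzymes of redox metabolism, and they include NRF2 itself (NFE2L2) and its repressor KEAP1. They were chosen by name: a gene counts where the array's annotation gives its symbol alone for a probe set, and the brightest such probe set over the arrays stands for it. Of the 36 genes, 35 were measured, out of 19775 genes in all. FTH1, the ferritin heavy chain, had no probe set with that symbol alone and has no value here.

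The values come from 32 Affymetrix arrays in 8 groups of 4. A549 cells, a lung adenocarcinoma line, and H460a cells, a lung cancer line named in this way by the labels, were given 2 µM of the gamma-secretase inhibitor RO4929097 (GSI) or its vehicle for 6 or 24 h. All cells were plated at 35% confluency and rested overnight before dosing. Gamma-secretase is the protease that releases the active intracellular fragment of Notch receptors, and the labels name no introduced allele in any group. The labels do not say whether the 4 replicates of a group were separate cultures, so the tests weigh differences against a spread that may be technical only.

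NRF2 is held at low levels by KEAP1, an adaptor that hands it to the CUL3 ubiquitin ligase. Oxidants and electrophiles modify KEAP1, NRF2 then accumulates, and with a small MAF partner it binds antioxidant response elements near genes for glutathione synthesis, thioredoxin recycling, NADPH supply, quinone reduction and drug export. KEAP1 is often mutated in lung cancer, and both A549 and H460 are known to carry KEAP1 mutations with high NRF2 activity at rest.

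Levels are log2 intensities of 1 probe set, so they compare samples and not genes. By brightness of the probe set, 20 of the 35 had a mean of at least 12. Differences are in log2 units, ± the standard error of limma's fit over all 32 arrays, with 4 arrays a group, and each p is adjusted (Benjamini-Hochberg) over all 19775 genes. A gene passed the test where its adjusted p was under 0.05. Over all genes that standard error had a median of 0.087, and the number of arrays limits the precision. In bulk RNA, fewer cells that express a gene and less RNA per cell cannot be told apart.

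The arrays differed in ways that touch some of these results. The mean intensity was between 496 and 589 on the A549 GSI arrays at 6 h, between 468 and 496 on the A549 vehicle arrays at 6 h, and between 570 and 613 on the other 24 arrays. The A549 GSI arrays 3 and 4 at 6 h exceeded every A549 vehicle array of that time by more than 10%. On H460a vehicle array 3 at 6 h, the 3′ signal of beta-actin exceeded its 5′ signal by 2.19 log2 units, against at most 0.42 on any other array. These 3 arrays are called the arrays that stand apart, and the counts were repeated without them. Of 6 epithelial markers, 4 had a mean of at least 8 in A549 and 4 in H460a. Leukocyte markers reached that level in 1 of 5 cases in both lines. Of 5 fibroblast markers 1 did in both lines, and of 5 endothelial markers 0 did in A549 and 1 in H460a. Of 5 alveolar type II markers, 1 did in both lines. HES1, a direct Notch target, had GSI differences of -1.63 ± 0.13 at 6 h and -2.18 ± 0.13 at 24 h in A549, both past the test. In H460a they were -0.35 at 6 h (adjusted p = 0.32) and -0.29 at 24 h (adjusted p = 0.82).

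In A549 cells after 24 h of GSI, most genes of this set had small differences above 0, and 5 passed the test. The fatty acid omega-hydroxylases CYP4F3 and CYP4F11, the drug and bilirubin conjugate exporter ABCC2 and the sulfiredoxin SRXN1, which repairs overoxidized peroxiredoxins, rose. HMOX1, heme oxygenase 1, which breaks heme into biliverdin, iron and carbon monoxide, fell. This makes 4 of 35 genes higher, where 1.32% of all genes were, and 1 of 35 lower, where 0.885% of all genes were. The median difference of the 35 genes was 0.14, and 31 of the 35 differences were above 0, beside a median of 0.01 over all genes. The 5 genes past the test became 9 without the arrays that stand apart and 3 without vehicle array 3. Over all genes the 437 past the test became 664 and 321 in these fits. The arrays that stand apart are all of 6 h, so leaving them out changed the shared estimate of spread and no difference of 24 h.

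CYP4F3 stood at 8.24, 8.35, 8.54 and 8.39 on the A549 GSI arrays at 24 h, against 7.81, 7.60, 7.72 and 7.62 on the vehicle arrays. All GSI arrays lay above all vehicle arrays. The difference was 0.69 ± 0.12, a 1.62-fold level (adjusted p = 0.00051). CYP4F11 stood at 7.79, 7.93, 7.95 and 7.87 on the GSI arrays, against 7.46, 7.36, 7.35 and 7.26 on the vehicle arrays. The groups did not overlap, and the difference was 0.53 ± 0.09, a 1.44-fold level (adjusted p = 0.00054). CYP4F3 and CYP4F11 are close relatives in sequence, and whether their probe sets also bind each other's transcript or that of another CYP4F gene was not tested. ABCC2 stood at 11.68, 11.82, 11.79 and 12.03 on the GSI arrays, against 11.44, 11.46, 11.45 and 11.41 on the vehicle arrays. Its 4 vehicle arrays were nearly level and all GSI arrays lay above them, with a difference of 0.39 ± 0.08, a 1.31-fold level (adjusted p = 0.0018). The adjusted p of these 3 genes stayed under 0.05 under every alternative that tested them. With a difference of at least 0.58 also required, CYP4F3 was called and CYP4F11 and ABCC2 were not.

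SRXN1 stood at 12.45, 12.48, 12.56 and 12.49 on the A549 GSI arrays at 24 h, against 12.21, 12.31, 12.23 and 12.23 on the vehicle arrays. The difference was 0.25 ± 0.06, a 1.19-fold level (adjusted p = 0.030), with no overlap. The call is near the threshold: it was lost when any of 6 arrays was left out (GSI arrays 2, 3 and 4, vehicle arrays 1, 3 and 4; highest adjusted p = 0.12) and with centring of each array on its median (adjusted p = 0.059). HMOX1 stood at 10.48, 10.73, 10.82 and 10.62 on the GSI arrays, against 10.97, 11.06, 11.48 and 11.21 on the vehicle arrays. Every GSI array lay below every vehicle array, and the difference was -0.52 ± 0.12, a level of 0.698 times that with vehicle (adjusted p = 0.0075). Without vehicle array 3, the highest of its group, the difference was -0.42 (adjusted p = 0.065).

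**Figure D1:**
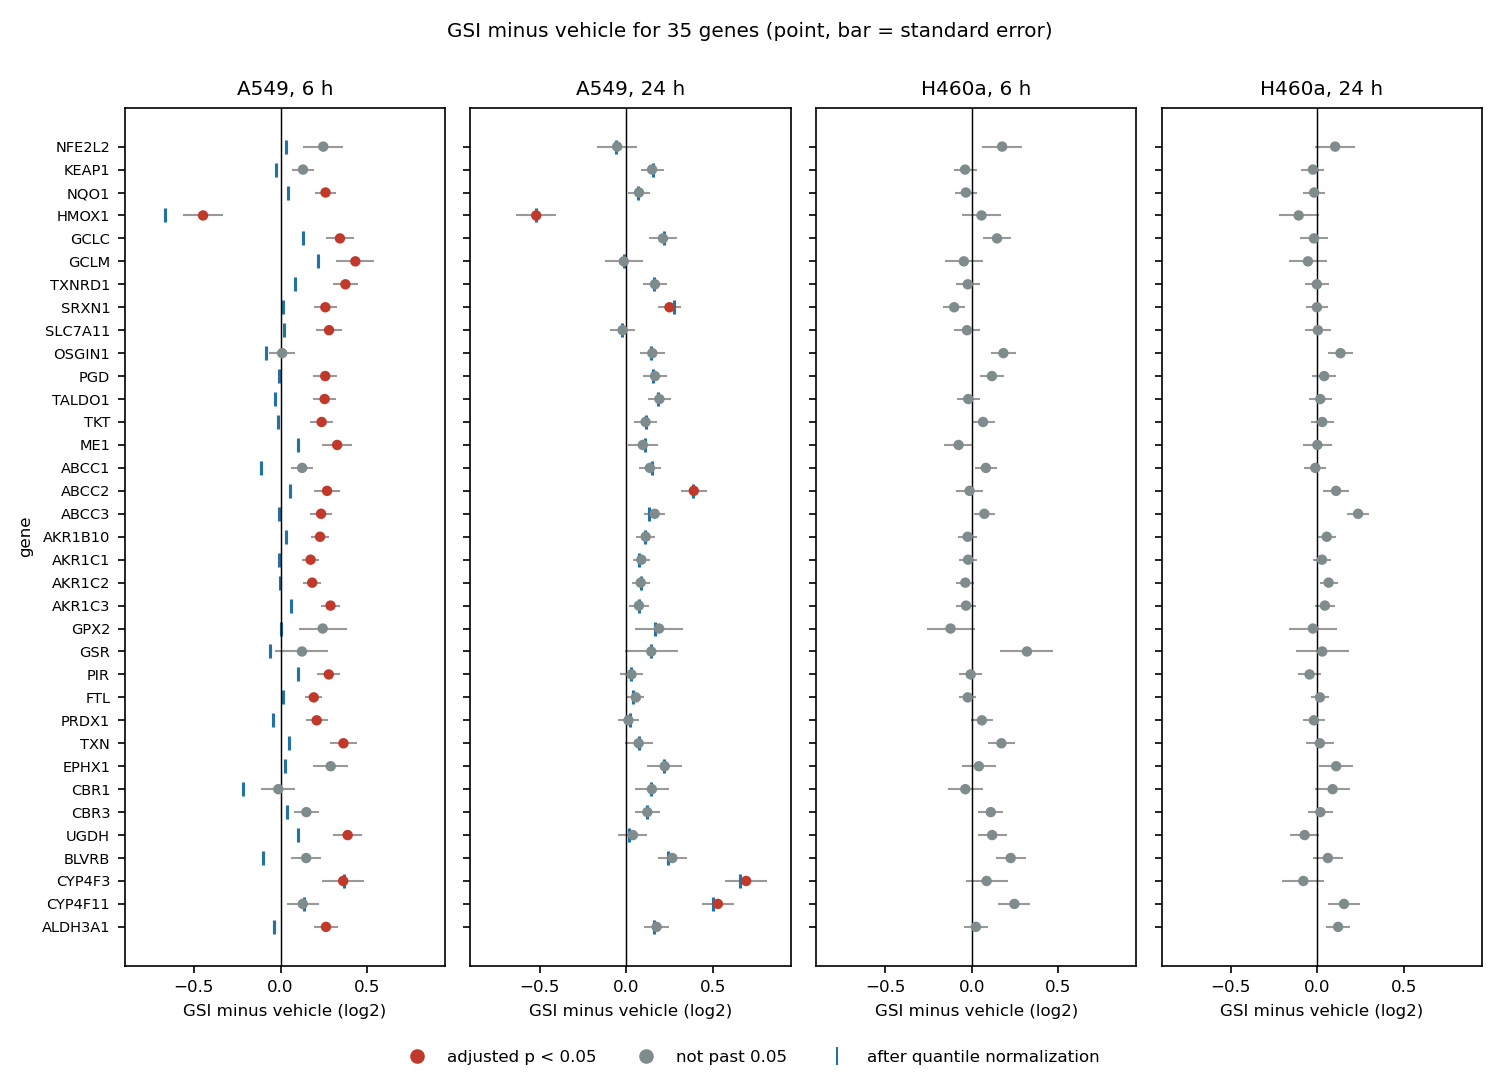
Difference between GSI and vehicle arrays (log2, horizontal axis) for each of 35 genes (rows) in A549 and H460a at 6 and 24 h. Points are limma estimates with bars of 1 standard error, red where the adjusted p is under 0.05, and blue ticks in the A549 panels give the difference after quantile normalization. At 24 h in A549 31 of 35 points lie right of 0 and 31 do so after quantile normalization too, while at 6 h most points move close to 0.

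The arrays of the 2 treatments separated for many more of the 35 genes than passed the test. In A549 at 24 h every GSI array lay above every vehicle array for 25 of the 35 genes (71.4%), where this held for 7.1% of all genes. HMOX1 was the only one of the 35 with every GSI array below. After quantile normalization, which gives all arrays the same distribution, it held for 23 of the 35 genes, where it held for 8.12% of all genes. Bright genes separated more often than others: among the 738 genes with a mean of at least 12 it held for 19.2%, and for 17 of the 20 genes of the set in that range. The mean intensities of these arrays overlapped, between 585 and 602 for GSI and between 584 and 597 for vehicle. The separated genes differed by as little as 0.04 (UGDH, UDP-glucose dehydrogenase), and most of the 25 did not pass the test. The set was chosen with earlier results of these data known, so its excess over all genes is not an independent result.

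By role, the thioredoxin genes gave 1 call of 4 at 24 h in A549. TXNRD1, thioredoxin reductase 1, stood at 14.04, 14.02, 14.07 and 14.001 on the GSI arrays, against 13.88, 13.81, 13.88 and 13.90 on the vehicle arrays. The groups did not overlap, with a difference of 0.17 ± 0.07 (adjusted p = 0.31). After quantile normalization its difference was 0.16 and passed (adjusted p = 0.031). TXN (thioredoxin) and PRDX1 (peroxiredoxin 1) had differences of 0.07 and 0.01.

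Of the 5 glutathione genes none passed at 24 h in A549, and their differences lay between -0.02 and 0.21. GCLC, the catalytic subunit of the enzyme that limits glutathione synthesis, stood at 11.92, 11.87, 11.98 and 11.98 on the GSI arrays, against 11.74, 11.72, 11.70 and 11.76 on the vehicle arrays. All GSI arrays were above, with a difference of 0.21 ± 0.08 (adjusted p = 0.225). It passed after quantile normalization (0.22, adjusted p = 0.034). GCLM, the modifier subunit of the same enzyme, stood at 12.002, 11.91, 11.86 and 11.95 on the GSI arrays, against 11.96, 11.87, 11.99 and 11.96 on the vehicle arrays. The 2 groups overlapped, with a difference of -0.01 ± 0.11 (adjusted p = 0.98). SLC7A11, the cystine importer, stood at 12.62, 12.60, 12.77 and 12.74 on the GSI arrays, against 12.63, 12.81, 12.67 and 12.69 on the vehicle arrays, a difference of -0.02 ± 0.07 (adjusted p = 0.96). The 2 subunits of the same enzyme and the importer of its substrate thus gave 1 gene with separated arrays and 2 with mixed ones. After quantile normalization the calls at 24 h came to 6 higher, where 1.68% of all genes were, and 1 lower, where 1.4% were.

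The 8 quinone and carbonyl genes are reductases and the aldehyde dehydrogenase ALDH3A1. All had differences above 0 at 24 h in A549, between 0.07 and 0.18, and none passed. NQO1, the NAD(P)H quinone reductase used as a standard readout of NRF2, stood at 14.76, 14.78, 14.77 and 14.81 on the GSI arrays, against 14.65, 14.73, 14.72 and 14.73 on the vehicle arrays. The groups did not overlap, with a difference of 0.07 ± 0.06 (adjusted p = 0.73). The 4 NADPH genes, which are the pentose phosphate enzymes PGD, TALDO1 and TKT and the malic enzyme ME1, were between 0.10 and 0.19, with none past the threshold. AKR1C1, AKR1C2 and FTL (the ferritin light chain) are read by probe sets whose names mark probes that also match other transcripts, so their values cannot be assigned to 1 gene each.

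NRF2 transcript itself was not detectably different. NFE2L2 stood at 11.89, 11.84, 11.93 and 11.94 on the A549 GSI arrays at 24 h, against 11.85, 11.96, 12.01 and 11.98 on the vehicle arrays, a difference of -0.05 ± 0.12 (adjusted p = 0.93). KEAP1 stood at 10.21, 10.31, 10.37 and 10.33 on the GSI arrays, against 10.12, 10.17, 10.19 and 10.15 on the vehicle arrays. The KEAP1 groups did not overlap, with a difference of 0.15 ± 0.07 (adjusted p = 0.35). The arrays measure transcript, while NRF2 is controlled largely through its protein.

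**Figure D2:**
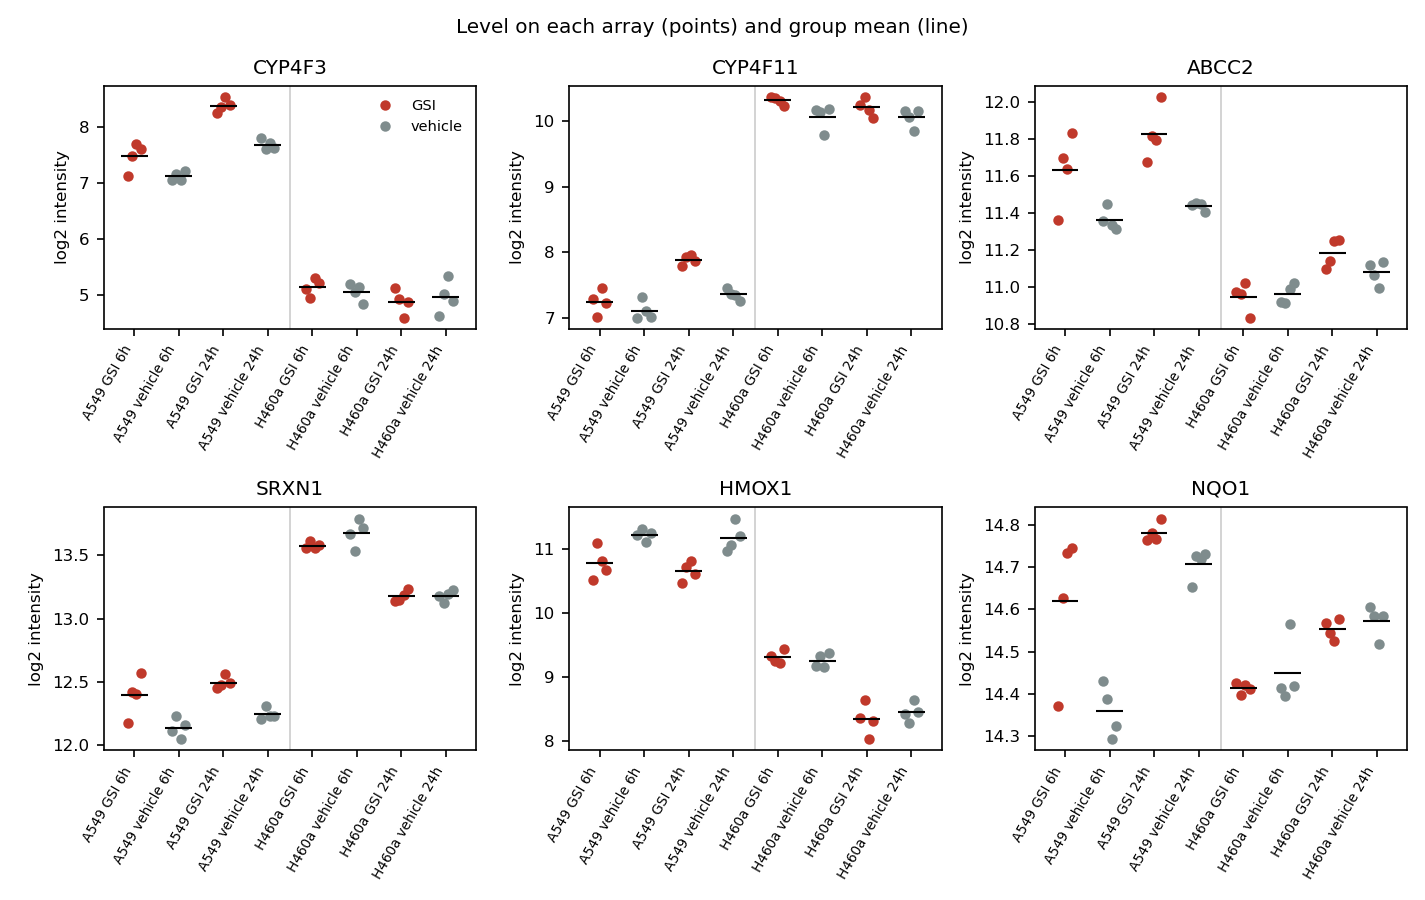
Log2 intensity of 6 genes on each of the 32 arrays (points, GSI in red and vehicle in grey) with the mean of each group of 4 (line). In A549 at 24 h the GSI points of CYP4F3, CYP4F11, ABCC2, SRXN1 and NQO1 lie above all vehicle points and those of HMOX1 lie below, while the H460a groups overlap at 24 h for all 6 genes.

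In A549 after 6 h of GSI, 23 of the 35 genes were higher as deposited, where 11.6% of all genes were, and HMOX1 was lower, where 1.51% of all genes were. The rises were between 0.17 and 0.43, and they covered 4 of 4 thioredoxin genes, 4 of 4 NADPH genes, 6 of 8 quinone and carbonyl genes and 3 of 5 glutathione genes. The median of the 35 genes was 0.25, against 0.02 over all genes. Among all 738 genes with a mean of at least 12, however, the median was 0.26 and 71.1% were higher. The 20 genes of the set in that range had a median of 0.26, with 18 of them higher.

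After quantile normalization 0 of the 35 genes were higher at 6 h, where 1.34% of all genes were, and 1, HMOX1, was lower, where 1.48% were. By limma 6 of the 35 had an unadjusted p under 0.05 on that scale, where 3919 of all 19775 genes did. The median difference of the 35 was 0.02. Without the arrays that stand apart 0 of the 35 passed, where 22 of all 19775 genes did. With the A549 6 h arrays alone 0 of the 35 passed, where 29 of all genes did. Leaving out GSI array 3, GSI array 4 or vehicle array 3 left 2, 4 and 8 of the 35 past the threshold. Over all genes these 3 fits left 167, 312 and 499, against 2600 as deposited. GCLM stood at 11.77, 11.87, 12.26 and 12.25 on the GSI arrays, against 11.80, 11.56, 11.43 and 11.62 on the vehicle arrays. Its high values are those of GSI arrays 3 and 4, and its difference was 0.43 ± 0.11 as deposited (adjusted p = 0.012) and 0.22 after quantile normalization (adjusted p = 0.17).

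TXNRD1 stood at 13.62, 13.85, 14.06 and 14.13 on the A549 GSI arrays at 6 h, against 13.57, 13.60, 13.46 and 13.53 on the vehicle arrays. GSI arrays 3 and 4 were again highest, and the difference was 0.37 ± 0.07 as deposited (adjusted p = 0.0026) and 0.08 after quantile normalization (adjusted p = 0.30). With the mean of all its probe sets it was 0.17 (adjusted p = 0.069). NQO1 stood at 14.37, 14.63, 14.73 and 14.75 on the GSI arrays, against 14.43, 14.39, 14.29 and 14.32 on the vehicle arrays, a difference of 0.26 as deposited (adjusted p = 0.0086) and 0.04 after quantile normalization (adjusted p = 0.61). GSI array 1 lay among the vehicle arrays for NQO1. SRXN1 stood at 12.18, 12.42, 12.41 and 12.57 on the GSI arrays, against 12.11, 12.23, 12.05 and 12.16 on the vehicle arrays, a difference of 0.26 as deposited (adjusted p = 0.011) and 0.02 after quantile normalization (adjusted p = 0.91).

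GCLC stood at 11.64, 11.85, 12.15 and 12.11 on the A549 GSI arrays at 6 h, against 11.60, 11.57, 11.56 and 11.66 on the vehicle arrays, a difference of 0.34 as deposited (adjusted p = 0.0079) and 0.13 after quantile normalization (adjusted p = 0.22). SLC7A11 stood at 12.53, 12.72, 12.82 and 12.83 on the GSI arrays, against 12.41, 12.50, 12.39 and 12.48 on the vehicle arrays, a difference of 0.28 as deposited (adjusted p = 0.014) and 0.02 after quantile normalization (adjusted p = 0.89). For both genes GSI arrays 3 and 4 held the highest values. CYP4F3 stood at 7.13, 7.48, 7.70 and 7.60 on the GSI arrays, against 7.06, 7.15, 7.05 and 7.21 on the vehicle arrays. It is a dim probe set whose difference hardly moved with the scaling, 0.36 ± 0.12 as deposited (adjusted p = 0.044) and 0.37 after quantile normalization (adjusted p = 0.093). Its call at 6 h held under only 3 of 18 alternatives. CYP4F11 and ABCC2 had differences of 0.13 and 0.27 as deposited and of 0.13 and 0.06 after quantile normalization.

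The other genes past the threshold as deposited at 6 h were TXN, UGDH, ME1, AKR1C3, PIR, ABCC2, ALDH3A1, PGD, TALDO1, TKT, ABCC3, AKR1B10, PRDX1, FTL, AKR1C2 and AKR1C1. Their differences lay between 0.17 (AKR1C1) and 0.39 (UGDH) as deposited. After quantile normalization they lay between -0.04 (PRDX1) and 0.10 (UGDH, with an adjusted p of 0.43). NFE2L2 stood at 11.65, 11.62, 11.99 and 11.49 on the GSI arrays, against 11.56, 11.44, 11.30 and 11.45 on the vehicle arrays, a difference of 0.25 ± 0.12 (adjusted p = 0.15). KEAP1 stood at 10.11, 10.14, 10.30 and 10.28 on the GSI arrays, against 10.08, 10.05, 10.09 and 10.08 on the vehicle arrays, a difference of 0.13 ± 0.07 (adjusted p = 0.20).

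HMOX1 moved against this shift. It stood at 10.52, 11.11, 10.82 and 10.68 on the A549 GSI arrays at 6 h, against 11.23, 11.32, 11.12 and 11.25 on the vehicle arrays. All GSI arrays lay below all vehicle arrays, GSI array 2 by a small margin, and the difference was -0.45 ± 0.12 (adjusted p = 0.013) as deposited and -0.67 after quantile normalization (adjusted p = 0.0012). Without the arrays that stand apart it was -0.41 (adjusted p = 0.49), and from the A549 6 h arrays alone it was -0.45 (adjusted p = 0.071). Without GSI array 3 or GSI array 4 it was -0.46 and -0.41 (adjusted p = 0.061 and 0.070), and with quantile normalization and the arrays that stand apart left out it was -0.54 (adjusted p = 0.15). The arrays of HMOX1 were separated at both times, and its effect at 24 h minus that at 6 h was -0.07, with a 95% interval between -0.40 and 0.26.

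For every GSI array above every vehicle array, the A549 count at 6 h was 12 of 35 genes as deposited, where this held for 9.51% of all genes. Among genes with a mean of at least 12 it held for 34.8% of all genes and for 9 of the 20 genes of the set. After quantile normalization it was 3 of 35, where it held for 3.61% of all genes. The 24 h pattern, with 25 genes as deposited and 23 after quantile normalization, did not depend on the scaling to this degree.

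**Figure D3:**
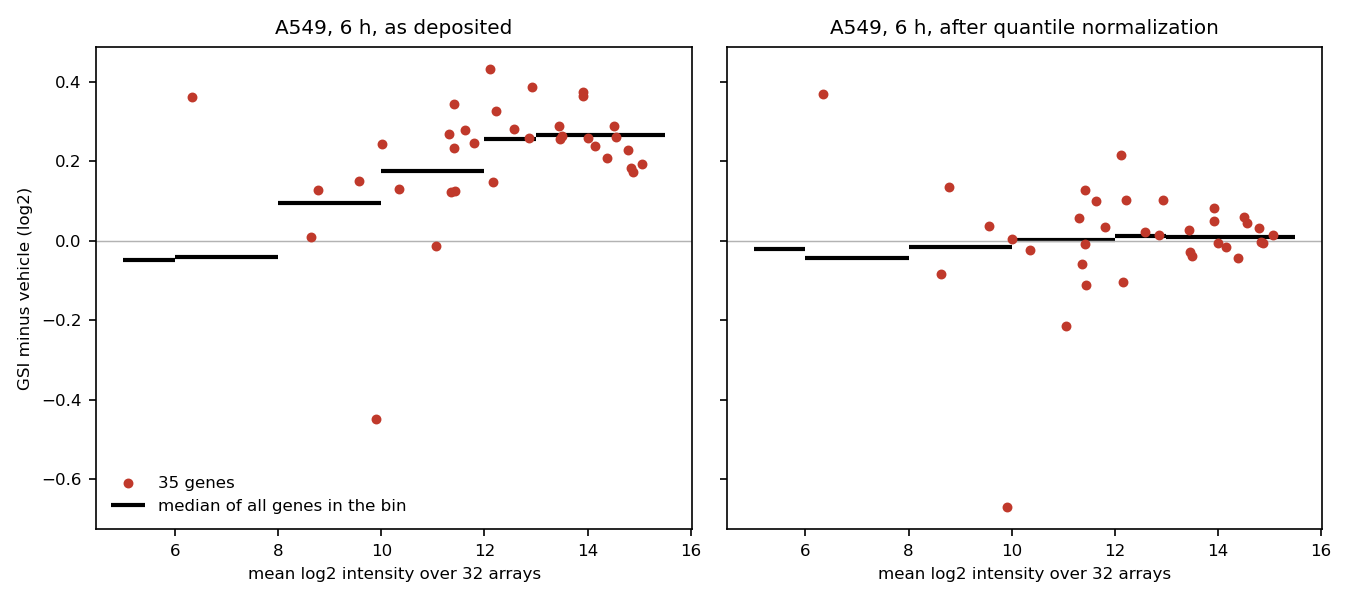
Difference between GSI and vehicle arrays in A549 at 6 h (log2, vertical axis) against the mean level of the gene over 32 arrays (log2 intensity, horizontal axis), as deposited (left) and after quantile normalization (right). Red points are the 35 genes and black lines the median of all genes in each range of level, which reaches 0.27 at 13 and above as deposited and 0.01 after quantile normalization.

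In H460a cells 0 of the 35 genes passed at 6 h in limma's test, where 0.0708% of all genes were higher and 0.0253% lower. While 2201 of all 19775 genes had an unadjusted p under 0.05, 5 of the 35 did. The differences lay between -0.12 (GPX2, a glutathione peroxidase) and 0.32 (GSR, glutathione reductase, adjusted p = 0.44). On H460a vehicle array 3, which stands apart, GSR was at 10.73, against 11.62 to 11.81 on the other vehicle arrays. At 24 h again 0 of 35 passed, where 0.00506% of all genes were higher and 0 were lower. While 1145 of all 19775 genes had an unadjusted p under 0.05, 1 of the 35 did. The differences lay between -0.11 (HMOX1) and 0.23 (ABCC3, an organic anion exporter, adjusted p = 0.35). The 95% intervals of the single genes, not adjusted for their number, lay within -0.41 and 0.63 at 6 h and within -0.34 and 0.36 at 24 h. A change of the size of CYP4F11 in A549 at 24 h (0.53) lay outside all 35 intervals of 24 h.

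Every H460a GSI array lay above every vehicle array for 2 of 35 genes at 6 h, where this held for 4.34% of all genes. These were ABCC3 and CYP4F11. At 24 h it held for 5 of 35 genes, where it held for 1.82% of all genes. These 5 were ABCC3, ALDH3A1 (an aldehyde dehydrogenase), EPHX1 (microsomal epoxide hydrolase), AKR1C2 and AKR1B10. ABCC3 stood at 10.50, 10.58, 10.49 and 10.54 on the GSI arrays, against 10.31, 10.27, 10.38 and 10.22 on the vehicle arrays. NQO1 stood at 14.57, 14.55, 14.52 and 14.58 on the GSI arrays, against 14.61, 14.58, 14.52 and 14.58 on the vehicle arrays, and the groups overlapped. HMOX1 stood at 8.37, 8.65, 8.03 and 8.31 on the GSI arrays, against 8.43, 8.28, 8.64 and 8.45 on the vehicle arrays, with a wide spread in both. CYP4F11 was at 10.24, 10.37, 10.18 and 10.05 on the GSI arrays, against 10.15, 10.06, 9.84 and 10.16 on the vehicle arrays, a difference of 0.15 ± 0.09 (adjusted p = 0.92).

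The differences of NFE2L2, KEAP1, GCLC, GCLM, TXNRD1, SRXN1 and SLC7A11 in H460a lay between -0.06 (GCLM) and 0.10 (NFE2L2) at 24 h. At 6 h they lay between -0.10 (SRXN1) and 0.17 (NFE2L2).

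The test of the difference between lines gave 1 of 35 genes at 24 h. The GSI effect on CYP4F3 was 0.69 in A549 and -0.08 in H460a, a difference of 0.77 ± 0.17 (adjusted p = 0.022), where 0.364% of all genes were higher by this test and 0 of 35 were lower, where 0.273% of all genes were. The CYP4F3 probe set stood between 4.59 and 5.33 on all H460a arrays, below the lower quartile of all genes by mean level (6.08), where a fall is hard to read. The call was lost when any of 5 arrays was left out (A549 GSI array 3, A549 vehicle array 2, H460a GSI array 3, H460a vehicle arrays 2 and 3). For HMOX1 the effect in A549 minus that in H460a was -0.41 at 24 h, with a 95% interval between -0.74 and -0.08 that is not adjusted for the number of genes. At 6 h the test between lines gave 0 of 35 genes, where 0.086% of all genes were higher and 0.0354% lower. An unadjusted p under 0.05 was reached by 17 of the 35 and by 2937 of all 19775 genes. The test of the A549 effect at 24 h minus that at 6 h gave 0 of 35 genes. Over all genes 0.657% were higher and 3.05% lower by it. Here 10 of the 35 and 4079 of all 19775 genes had an unadjusted p under 0.05. Both tests use the A549 arrays of 6 h, and without A549 GSI array 1 at 6 h they gave 16 and 8 of the 35 genes.

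Promoters of the genes were searched for the core of the antioxidant response element, TGACNNNGC, on both strands. The windows hold 250 bases before and 50 after a start in RefSeq, build GRCh38.p14, and 26 of the 36 genes had 1 or more. The core was found for 10 of these 26 genes (38.5%), where 16.1% of all genes with an entry hold it, and in 33.3% of the 33 windows of the set against 13.3% of all 35116 windows. The sites of these 10 genes are shown because they are the only matches, each read in the direction of the core with the core in capitals and 9 bases on both sides.
PGD, chr1:10398863-10398871: gcacctagaTGACATTGCcccggcgag
GCLM, chr1:93909456-93909464: ggaagacaaTGACTAAGCagaaatcgt
EPHX1, chr1:225825276-225825284: gagattggcTGACTTGGCaggactgtg
ME1, chr6:83431180-83431188: ctcctgccaTGACTCAGCgcttctcgc
ME1, chr6:83431032-83431040: ctgctggggTGACGGTGCtgactgcag
TXNRD1, chr12:104215680-104215688: cacgggctaTGACTTCGCtgttgtcac
TXNRD1, chr12:104215771-104215779: tgtgggaacTGACGGAGCcgaaggacg
TXNRD1, chr12:104286930-104286938: gagtcagaaTGACAAAGCagaaatcca
GPX2, chr14:64942859-64942867: tccccaggaTGACTTAGCaaaaacagg
KEAP1, chr19:10502817-10502825: cttttattgTGACACGGCgggcgcccg
KEAP1, chr19:10502794-10502802: aggtcaccaTGACTAAGCagagccggg
CYP4F11, chr19:15935015-15935023: agctcagggTGACACAGCatgggcaca
CBR1, chr21:36069865-36069873: cagctagccTGACTTTGCagaacccgc
PIR, chrX:15493299-15493307: gcctcaccgTGACTCAGCgcttcgcgg

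ME1 and PIR share the core TGACTCAGC, and GCLM and KEAP1 share TGACTAAGC. The EPHX1, TXNRD1, CBR1 and PGD sites lie near genes on the plus strand and the others near genes on the minus strand. Of the 4 genes that rose past the test at 24 h in A549, CYP4F11 has the core in 1 of 2 windows. Its first base is at -156 from the start. The windows of CYP4F3, ABCC2 and SRXN1 hold none. The CYP4F11 window with the core and the single windows of CYP4F3 and ABCC2 are shown 5′ to 3′ on the gene's strand. These 3 genes had the lowest adjusted p among the rises, and the core (here in reverse complement) is in capitals. The other CYP4F11 window and the SRXN1 window, which lack the core, are not printed.
CYP4F11, chr19:15934818-15935117, minus strand: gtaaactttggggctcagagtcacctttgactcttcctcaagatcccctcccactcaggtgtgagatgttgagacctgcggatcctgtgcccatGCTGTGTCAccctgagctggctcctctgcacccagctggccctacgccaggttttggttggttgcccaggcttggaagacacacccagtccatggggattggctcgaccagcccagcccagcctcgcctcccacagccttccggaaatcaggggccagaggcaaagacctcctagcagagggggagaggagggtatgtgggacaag
CYP4F3, chr19:15641062-15641361, plus strand: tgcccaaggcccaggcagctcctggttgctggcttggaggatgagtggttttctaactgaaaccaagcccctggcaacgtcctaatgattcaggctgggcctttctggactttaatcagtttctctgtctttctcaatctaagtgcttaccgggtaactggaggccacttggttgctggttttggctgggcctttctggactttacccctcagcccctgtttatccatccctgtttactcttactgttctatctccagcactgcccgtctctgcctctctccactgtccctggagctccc
ABCC2, chr10:99782390-99782689, plus strand: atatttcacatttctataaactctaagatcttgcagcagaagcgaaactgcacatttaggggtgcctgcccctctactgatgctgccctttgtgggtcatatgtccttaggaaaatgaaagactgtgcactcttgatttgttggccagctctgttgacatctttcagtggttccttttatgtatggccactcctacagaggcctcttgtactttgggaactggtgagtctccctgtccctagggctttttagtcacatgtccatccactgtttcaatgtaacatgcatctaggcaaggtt

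A match is a description of letters and not a site of binding, and a window with no match says only that these letters are not in these 300 bases.

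Other genes of the same pathways, 92 measured of 101 listed, were counted beside the set. In A549 at 24 h 8 of the 92 were higher, where 1.32% of all genes were, and 0 lower, where 0.885% were. By role these were 5 of 18 other detoxification and transport genes, 2 of 24 other glutathione genes, 1 of 11 other heme and iron genes, 0 of 16 other peroxide and superoxide genes, 0 of 11 other NADPH genes and 0 of 12 partners and regulators of NRF2. Among the transport and detoxification genes that rose were ABCB6 (0.40 ± 0.06, adjusted p = 0.00016), a porphyrin transporter, CYP4F2 (0.33 ± 0.08, adjusted p = 0.024), ABCG2 (0.31 ± 0.07, adjusted p = 0.011) and the soluble epoxide hydrolase EPHX2 (0.26 ± 0.07, adjusted p = 0.0375). The fifth, the fatty aldehyde dehydrogenase ALDH3A2 (0.25 ± 0.06, adjusted p = 0.022), falls outside the naming rule and was named after its values were seen. The CYP4F2 probe set, like that of AKR1C1, has a name that marks probes also matching other transcripts. Its rise, counted among the 5, thus cannot be assigned to 1 gene. CYP4F12 had a mean of 8.62 on the GSI arrays and 8.24 on the vehicle arrays but did not pass. Of the glutathione transferases GSTA4 (0.38 ± 0.07, adjusted p = 0.00096) and GSTM4 (0.35 ± 0.10, adjusted p = 0.04997) rose. ALAS1, which starts heme synthesis, was higher by 0.22 ± 0.06 (adjusted p = 0.038), next to the lower HMOX1, which starts heme breakdown. All 8 also passed after quantile normalization. In A549 at 6 h 29 of the 92 were higher as deposited, where 11.6% of all genes were and 71.1% of those with a mean of at least 12. Of these 29, the glutathione genes GLRX (0.32, adjusted p = 0.0032) and GSTM4 (0.33, adjusted p = 0.046) passed after quantile normalization. In H460a 0 of the 92 passed at either time in limma's test.

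Culture time alone, 24 h against 6 h in vehicle, also moved these genes. In A549 26 of the 35 were higher, where 29.2% of all genes were, and 2 lower, where 15% were, but these arrays of 6 h are the dimmer ones. Among the 738 genes with a mean of at least 12, 86.3% were higher, with a median of 0.40, and the 20 genes of the set in that range had a median of 0.34. After quantile normalization 5 of the 35 were higher, where 16.6% of all genes were, and 12 lower, where 22.1% were. The direction of 17 of the 35 differences turned with the scaling, and 4 genes passed in opposite directions.

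Passing in the same direction under both scalings in A549 were 5 higher and 2 lower genes. EPHX1 differed by 0.74 ± 0.10 as deposited and 0.31 after quantile normalization, ABCC3 by 0.64 ± 0.06 and 0.24, CYP4F3 by 0.57 ± 0.12 and 0.58, PIR (pirin, an iron-binding protein) by 0.50 ± 0.07 and 0.19, and CYP4F11 by 0.25 ± 0.09 and 0.26. The carbonyl reductase CBR1 (-0.42 ± 0.10 and -0.77) and OSGIN1 (-0.20 ± 0.07 and -0.36) fell. Of the other genes with the largest rises as deposited, GPX2 (0.59), UGDH (0.52), ALDH3A1 (0.52), NFE2L2 (0.51), ME1 (0.45) and TXN (0.44) did not pass after quantile normalization, and TXN was then at -0.06.

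In H460a, whose arrays were alike in intensity at both times, 7 of the 35 were higher, where 15.1% of all genes were, and 8 lower, where 15.3% were. ALDH3A1 rose by 0.98 ± 0.07 (adjusted p = 7.9e-13), with 13.66, 13.68, 13.68 and 13.75 on the vehicle arrays at 24 h, against 12.74, 12.58, 12.68 and 12.86 at 6 h. PIR rose by 0.59 ± 0.07, ABCC3 by 0.44 ± 0.06, the transketolase TKT by 0.31 ± 0.07, the glutathione conjugate exporter ABCC1 by 0.27 ± 0.06, the biliverdin reductase BLVRB by 0.23 ± 0.09 and PGD by 0.18 ± 0.07. The last 2 depend on H460a vehicle array 3 at 6 h, which stands apart. BLVRB was at 10.9996 on it, against 11.52 to 11.66 on the other vehicle arrays of 6 h, and PGD at 13.42, against 13.71 to 13.78. PIR and ABCC3 were higher at 24 h in both lines, under both scalings in A549.

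HMOX1 had the largest fall in H460a, with 8.43, 8.28, 8.64 and 8.45 at 24 h, against 9.17, 9.33, 9.16 and 9.37 at 6 h, a difference of -0.81 ± 0.12 (adjusted p = 9.2e-07). GCLM followed, with 12.33, 12.15, 11.79 and 12.14 at 24 h, against 12.50, 12.62, 12.80 and 12.61 at 6 h, a difference of -0.53 ± 0.11. SRXN1 stood at 13.18, 13.13, 13.19 and 13.22 at 24 h, against 13.67, 13.54, 13.79 and 13.72 at 6 h, a difference of -0.50 ± 0.06. In all 3 genes every 24 h array lay below every 6 h array. GPX2 (-0.41), CBR1 (-0.29), CBR3 (-0.26), KEAP1 (-0.24) and AKR1B10 (-0.15) also fell. On H460a vehicle array 3 at 6 h, CBR1 was at 11.38, against 11.02 to 11.10 on the other vehicle arrays of 6 h. KEAP1 was at 10.91 on it, against 10.55 to 10.58, and AKR1B10 at 14.91, against 14.81 to 14.82, so these falls depend partly on that array. The genes of the set thus moved in both directions in H460a, 7 higher and 8 lower. The NQO1 difference was 0.12 (adjusted p = 0.14) and the TXNRD1 difference -0.08 (adjusted p = 0.48). Of the 92 other genes, 52 were higher and 9 lower as deposited at 24 h in A549, where 29.2% and 15% of all genes were. After quantile normalization 16.6% of all genes were higher and 22.1% lower. The counts, higher then lower, were 4 and 2 of 12 partners and regulators of NRF2 and 3 and 6 of 24 glutathione genes. They were 4 and 3 of 16 peroxide and superoxide genes and 3 and 0 of 11 NADPH genes. They were 4 and 6 of 18 detoxification and transport genes and 1 and 4 of 11 heme and iron genes. In H460a 30 of the 92 were higher and 16 lower, where 15.1% and 15.3% of all genes were. Among those higher was BACH1, a repressor that competes with NRF2 for its elements, by 0.92 ± 0.10 in A549 and 1.05 ± 0.10 in H460a. The iron exporter SLC40A1 was higher by 1.28 ± 0.11 in A549 and 0.92 ± 0.11 in H460a. These A549 values are as deposited, and a link of BACH1 to the genes that fell was not tested. Without H460a vehicle array 3 at 6 h, 13 of the 35 passed in H460a.

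**Figure D4:**
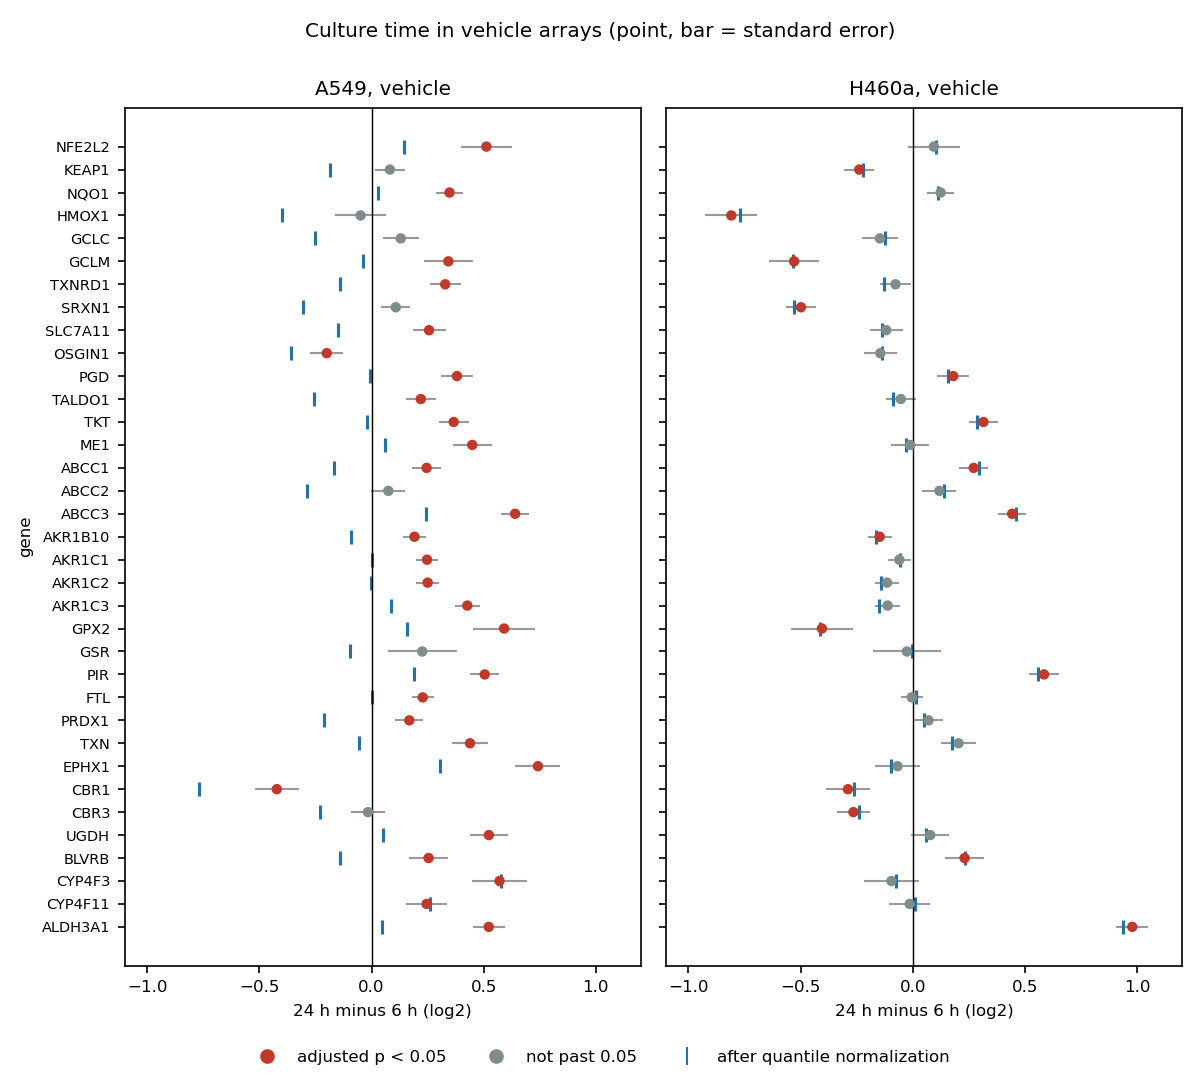
Difference between vehicle arrays at 24 h and 6 h (log2, horizontal axis) for each of 35 genes (rows) in A549 and H460a. Points are limma estimates with bars of 1 standard error, red where the adjusted p is under 0.05, and blue ticks the difference after quantile normalization, which moves 17 of the 35 A549 points across 0.

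Between the lines, in vehicle over both times, 14 of the 35 genes were higher in A549, where 28.8% of all genes were, and 15 lower, where 27.9% were. After quantile normalization 19 were higher, where 31.6% of all genes were, and 11 lower, where 25.1% were. A total of 14 higher and 11 lower genes passed under both scalings. GPX2, the gastrointestinal glutathione peroxidase, stood between 12.47 and 13.24 with a median of 12.90 in A549, against 6.48 to 7.54 with a median of 7.16 in H460a. That is the widest gap of the set, 5.78 ± 0.10, and since dim probe sets read near background the size may be understated. ABCC3 stood between 12.11 and 12.94 (median 12.59) in A549, against 9.84 to 10.38 (median 10.04) in H460a, a difference of 2.50 ± 0.04. CYP4F3 was higher in A549 by 2.40 ± 0.09 and HMOX1 by 2.35 ± 0.08, with HMOX1 between 10.97 and 11.48 (median 11.22) in A549, against 8.28 to 9.37 (median 8.90) in H460a. ABCC1 followed at 1.16 ± 0.05, BLVRB at 1.05 ± 0.06, GCLC at 0.66 ± 0.06, ALDH3A1 at 0.44 ± 0.05, UGDH at 0.41 ± 0.06 and ABCC2 at 0.38 ± 0.05.

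CYP4F11 ran the other way from CYP4F3. It stood between 7.002 and 7.46 (median 7.29) in A549, against 9.78 to 10.18 (median 10.15) in H460a, a difference of -2.83 ± 0.07. SRXN1 (-1.24 ± 0.05), CBR3 (-1.16 ± 0.05) and PIR (-0.86 ± 0.05) were also lower in A549. Smaller differences in this direction were those of TXN (-0.69 ± 0.06), EPHX1 (-0.66 ± 0.07), GCLM (-0.59 ± 0.08), ME1 (-0.54 ± 0.06), OSGIN1 (-0.45 ± 0.05) and PRDX1 (-0.43 ± 0.04). The 2 subunits of the glutathione-synthesis enzyme thus ran in opposite directions, GCLC higher and GCLM lower in A549. NQO1 differed by 0.02 as deposited (adjusted p = 0.69) and by 0.18 after quantile normalization (adjusted p = 4.8e-06), NFE2L2 stood between 11.30 and 12.01 in A549 against 11.38 to 12.09 in H460a, and the KEAP1 difference was -0.41 ± 0.05. The genes that rose with GSI in A549 at 24 h differed in their vehicle levels: CYP4F11 and SRXN1 were lower in A549 than in H460a, and CYP4F3 and ABCC2 higher.

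**Figure D5:**
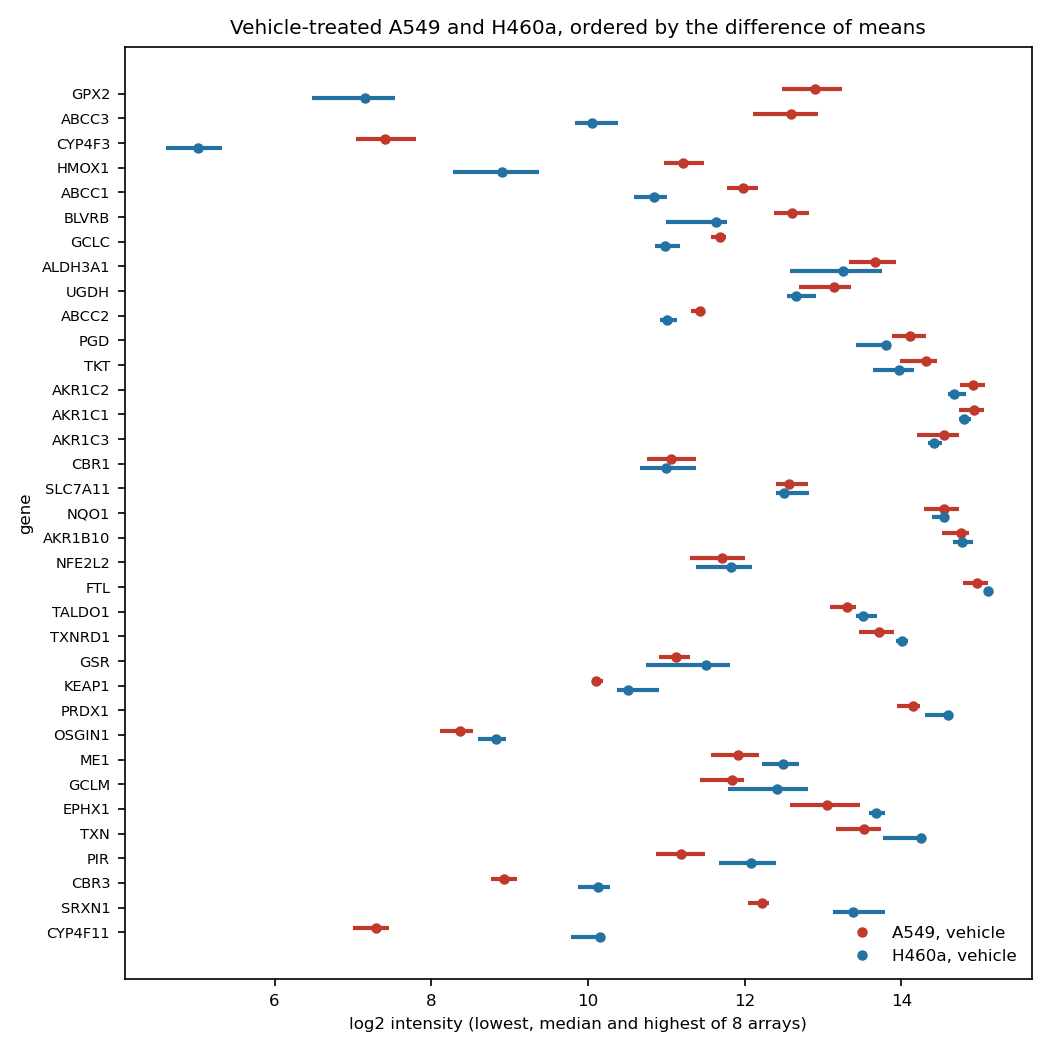
Log2 intensity (horizontal axis) of 35 genes (rows, ordered by the difference of means) on the 8 vehicle arrays of A549 (red) and of H460a (blue). Points are medians and lines run over the lowest and highest array, and GPX2, ABCC3, CYP4F3 and HMOX1 lie higher in A549 while CYP4F11, SRXN1 and CBR3 lie higher in H460a.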

How the data were processed

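Transcript levels were measured on 32 arrays in 8 groups of 4. The authors deposited 1 intensity per array for 54675 probe sets, made with RMA per the submitters' processing notes (version not given in the sources used here). Judged from the values they are on a linear scale, and log2 was taken of the deposited intensities with no further scaling. The 62 control probe sets, 1801 with several symbols and 11721 with none were left out, which left 41091 for 19775 genes. Several probe sets exist for 17 of the 35 genes. Group means were fitted with limma 3.58.1 in R 4.3.3 (lmFit, eBayes, 31.9 degrees of freedom in all), with adjusted p under 0.05 as threshold, after a check on simulated data. Figures used Python 3.11.15, pandas 2.3.3 and matplotlib 3.10.9. Values of all arrays are given for NFE2L2, KEAP1, NQO1, HMOX1, GCLC, GCLM, TXNRD1, SRXN1, SLC7A11 and genes past the threshold with GSI where they matter, up to 10 genes in each direction for time and line, and up to 4 for other lists. The genes and lists were chosen with earlier results of these data known. A note on embryos in the sample descriptions was not used. Same-numbered replicates were not paired: their deviations correlated between -0.35 and 0.32, not above 0.1 in every pair. Alternatives are in the closing section.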

Additional observations from a re-analysis of the deposited data

Results flagged for a closer look

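CYP4F3 is listed because its GSI effect at 24 h differed between lines, by 0.77 (A549 minus H460a), the only one of 35 genes by limma's test.

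Among 27 genes in 8 groups of 4 arrays, a single array lay far from the other 3 in 16 of 216 cases, and chance gives about 1 in 20. Of these, 5 were H460a vehicle array 3 at 6 h, the one with the actin 3′ excess: KEAP1 stood at 10.91 (others 10.55 to 10.58), NQO1 at 14.57 (14.39 to 14.42), SLC7A11 at 12.83 (12.49 to 12.55), AKR1B10 at 14.91 (14.81 to 14.82) and CYP4F11 at 9.78 (10.15 to 10.18). A further 4 were H460a GSI array 3 at 24 h: SLC7A11 at 12.33 (12.51 to 12.54), TALDO1 at 13.64 (13.47 to 13.48), PIR at 12.15 (12.32 to 12.33) and UGDH at 12.34 (12.69 to 12.75). In A549 at 24 h, GSI array 4 was alone for PGD at 14.51 (14.44 to 14.44) and for UGDH at 13.40 (13.37 to 13.37), and vehicle array 1 for NQO1 at 14.65 (14.72 to 14.73). In A549 at 6 h, vehicle array 3 was alone for PRDX1 at 13.95 (14.08 to 14.09). In H460a, GSI array 1 at 6 h was alone for TKT at 13.76 (13.85 to 13.86), GSI array 4 at 6 h for ALDH3A1 at 12.70 (12.75 to 12.75), and vehicle array 3 at 24 h for ME1 at 12.22 (12.50 to 12.53). The part of these arrays in the results was not tested beyond leaving each out in turn.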

How the results depend on the processing

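The counts are of genes past the threshold among the 35. For GSI in A549 at 6 h, 24 as deposited, the count was 1 with quantile normalization (over all arrays, and also line by line), and 0 from the comparison's own arrays, without the arrays that stand apart, with both quantile normalization and those arrays left out (an alternative chosen after seeing the data), and with a difference of at least 0.58. With the mean of all probe sets it was 16, losing TXNRD1, PGD, ME1, ABCC3, AKR1C1, AKR1C2, TXN and CYP4F3. Leaving out 1 array gave 2 to 26, where over all genes it gave 167 to 3834, against 2600 as deposited. Reversed there, with quantile normalization over all arrays, within each line and with the arrays that stand apart also left out, were PGD (-0.0067, -0.0077 and -0.0011), TALDO1 (-0.029, -0.029 and -0.0032), TKT (-0.017, -0.016 and -0.020), AKR1C1 (-0.0071, -0.0069 and -0.0070), AKR1C2 (-0.0037, -0.0042 and -0.00087), PRDX1 (-0.043, -0.047 and -0.014) and ALDH3A1 (-0.039, -0.043 and -0.013). ABCC3 was reversed under the first and second (-0.0090 and -0.0092) and FTL under the third (-0.0020). Reversed means here only an estimate below 0. Each of these values was smaller than its standard error, with an adjusted p of at least 0.63 by limma, so none shows a fall. The cause was not tested. For GSI in A549 at 24 h, 5 as deposited, the count was 8 from own arrays and 11 with array weights. Over all genes the calls were 437 as deposited, 620 from own arrays and 1169 with array weights. Without the arrays that stand apart it was 9 among the 35 and 664 over all genes. With quantile normalization and those arrays left out it was 13 among the 35 and 843 over all genes. Among the 35 it was 1 with at least 0.58, and 3 to 5 with 1 array left out (3 without vehicle array 3). The adjusted p of CYP4F3, CYP4F11 and ABCC2 stayed under 0.05 under every alternative that tested them, and CYP4F3 was the one with at least 0.58. For GSI in H460a the count stayed at 0 at 6 h, leaving out 1 array included. At 24 h it was 1 with quantile normalization within each line (4 over all genes). It was also 1 with quantile normalization and the arrays that stand apart left out (14 over all genes). In every fit with 1 array left out it was 0. For 24 h against 6 h in A549, 28 as deposited, it was 17 with either quantile normalization, 3 with at least 0.58 and 24 to 27 with 1 array left out. TXN was below 0 there under the same 3 quantile settings (-0.055, -0.058 and -0.055), with adjusted p of 0.54, 0.49 and 0.36 by limma. The alternatives for single genes of the time and line comparisons were chosen after seeing the data. In H460a, 15 as deposited, it was 3 with at least 0.58 and 11 to 16 with 1 array left out. Between lines, 29 as deposited, it was 14 with at least 0.58 and 29 to 30 with 1 array left out. For the difference of the GSI effect between lines at 6 h, 0 as deposited, it was 4 without genes under the median level, 3 with trend and robust eBayes, 3 with array weights, and 0 to 16 with 1 array left out (16 without A549 GSI array 1, 2 without GSI array 2). At 24 h, 1 as deposited, it was 0 from own arrays, 0 without genes under the median level (which leaves CYP4F3 untested), 2 with array weights, 2 with quantile normalization and the arrays that stand apart left out, and 0 to 1 with 1 array left out. For the A549 effect at 24 h minus 6 h, 0 as deposited, it was 1 with quantile normalization, 4 without genes under the median level, 7 with array weights, 1 with quantile normalization and the arrays that stand apart left out, and 0 to 8 with 1 array left out (8 without GSI array 1 at 6 h, 1 without GSI array 2 or vehicle array 1 at 6 h). With the replicate block the counts were 23, 5, 0, 0, 28, 14, 29, 0, 1 and 0, in the order GSI in A549 at 6 and 24 h, GSI in H460a at 6 and 24 h, time in A549 and H460a, lines, and the differences of effects at 6 h, at 24 h and between times. Signal over background limits GPX2 and CYP4F3 in H460a.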
